A study of Mus musculus with 25 samples.

Results

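The sugar carriers, the fructose kinase and the disaccharidases of the small intestine were followed in the duodenum of ethanol-fed mice. The family held 8 genes, taken by symbol from a deposited table of 17007 genes, and each of the 8 had a row there. Slc5a1, Slc2a5 and Slc2a2 encode the carriers SGLT1, GLUT5 and GLUT2, Khk encodes ketohexokinase, and Sis, Mgam, Lct and Treh encode sucrase-isomaltase, maltase-glucoamylase, lactase and trehalase. Polyadenylated RNA was sequenced in 25 libraries of duodenum from male mice, given as aged 8 weeks and as kept on their diets for 8 weeks.

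The KI groups were mice named Aldh2KI, called knock-in mice here after that name, and the WT groups were C57BL/6N mice. Aldh2 encodes the mitochondrial enzyme that clears acetaldehyde, the first product of ethanol breakdown. KI_Half (6 libraries) received ethanol as 2.5% of the diet plus 2 gavages a week of 2 g/kg each, and KI_Con (4 libraries) a control diet. WT_Con (4 libraries) had the control diet, WT_Half (7 libraries) the same regimen as KI_Half, and WT_Full (4 libraries) 5% ethanol in the diet plus 2 gavages a week of 4 g/kg each. The mice were killed 9 h after a final gavage stated as 5 g/kg. The altered sequence of the knock-in, the carbohydrate content of the diets, the amount eaten, and whether controls were gavaged are not stated in the sources used here. Nothing in the labels says which libraries came from separate animals, so p-values measure the spread between these libraries.

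Starch and the common disaccharides are cut to single sugars by enzymes anchored in the brush border of villus enterocytes. SGLT1 then carries glucose and galactose in with sodium, GLUT5 carries fructose in, and GLUT2 passes sugars on through the basolateral side toward the blood. Ketohexokinase traps fructose as fructose 1-phosphate inside the cell, and GLUT5 and ketohexokinase are known to be induced by fructose in the diet.

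The promoters of 4 members are printed because the results turn on them: Slc2a5, the fructose carrier gene, passed as lower in knock-in mice on ethanol while Khk, the next gene of the same route, did not, and Sis and Lct stand for the disaccharidases with a small and a large difference. Each is 250 bases before to 50 after the start that RefSeq gives, written 5′ to 3′ on the gene's strand, from RefSeq (GRCm38.p6), which matched all 8 members. That start is the GENCODE gene start printed with the values below for 6 members, and lies 61 bases downstream of it for Slc2a5 and 128 for Khk. Capitals mark the letters CACGTG, which read the same on both strands and are an E box as in the carbohydrate response element. The whole of that element was not searched for. Capitals also mark TTTAT, the core of the site of CDX factors, on either strand.
Slc2a5, chr4:150119094-150119393, plus strand: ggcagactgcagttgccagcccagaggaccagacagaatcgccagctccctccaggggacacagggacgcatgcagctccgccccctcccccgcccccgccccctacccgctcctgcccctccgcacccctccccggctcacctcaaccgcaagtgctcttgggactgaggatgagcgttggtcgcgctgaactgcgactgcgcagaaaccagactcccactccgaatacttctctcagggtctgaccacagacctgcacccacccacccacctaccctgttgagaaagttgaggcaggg
Khk, chr5:30921309-30921608, plus strand: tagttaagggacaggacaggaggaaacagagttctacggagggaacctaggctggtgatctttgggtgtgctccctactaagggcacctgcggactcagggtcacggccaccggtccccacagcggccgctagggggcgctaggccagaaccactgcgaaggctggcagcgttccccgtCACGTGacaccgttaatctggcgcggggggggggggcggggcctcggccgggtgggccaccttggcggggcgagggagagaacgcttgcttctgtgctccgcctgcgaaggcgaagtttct
Sis, chr3:72967814-72968113, minus strand: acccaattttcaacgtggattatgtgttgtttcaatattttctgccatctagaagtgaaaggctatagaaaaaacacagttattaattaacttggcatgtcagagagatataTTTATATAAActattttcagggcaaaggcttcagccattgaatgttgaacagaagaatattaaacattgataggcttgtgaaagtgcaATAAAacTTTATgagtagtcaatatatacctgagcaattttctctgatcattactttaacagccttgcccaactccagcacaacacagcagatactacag
Lct, chr1:128328269-128328568, minus strand: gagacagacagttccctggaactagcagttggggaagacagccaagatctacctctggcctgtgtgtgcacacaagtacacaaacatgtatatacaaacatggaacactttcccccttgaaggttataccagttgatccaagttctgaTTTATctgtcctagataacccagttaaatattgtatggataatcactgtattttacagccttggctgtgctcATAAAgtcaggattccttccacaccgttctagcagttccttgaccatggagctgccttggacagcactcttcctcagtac

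The 4 motifs searched on both strands were CACGTG (the E box) and TTTAT (CDX) as above, GATAA (the core of the GATA site) and CAAAG (the core of the HNF4 site). None of the 4 was found in the Slc2a5 window. The Khk window held CACGTG at -71, counted from the RefSeq start as 0 to the first letter of the match. CACGTG also stood at -143 in the Slc5a1 window and at -131 in the Mgam window. Unlike Khk, Slc5a1 and Mgam passed as lower in knock-in mice on ethanol. The Sis window held TTTAT 4 times, at -138, -133, -50 and -43, of which the first and second touch without overlap. The Lct window held TTTAT at -102 and -30 and GATAA 3 times, of which the one at -101 overlaps the TTTAT at -102. Over the family, CACGTG stood in 3 of 8 windows against 7.15% of 32851 mouse promoters, TTTAT in 3 (40.0%), GATAA in 3 (25.4%) and CAAAG in 6 (53.9%). These are matches of letters and no binding was measured.

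The libraries held between 24.6 and 44.8 M counts (M for mega), the median being 32.0 M. Levels are in CPM, that is counts per M counts of the TMM-scaled library. All 20 markers of villus enterocytes fixed for the label were counted, with a summed level of 26530 CPM or more in every library. Glands and neighbouring organs varied more: the summed level of 4 Brunner gland genes ran from 15.4 to 53712 CPM, and 5 control libraries (KI_Con replicates 1 and 2, WT_Con replicates 1, 3 and 4) had over 100 CPM of pancreatic acinar genes, which none of the 17 ethanol libraries had. WT_Half replicate 1 was just under that limit, at 98.4 CPM. Several libraries stand apart from their group in the members too. WT_Full replicate 4 lay at control levels, WT_Half replicate 1 was low, KI_Half replicate 7 was the highest of its group for all 8 members, and WT_Con replicate 3 was the lowest of its group for all 8. WT_Con replicate 3 also had 15508 CPM of 5 stomach genes.

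In KI_Half vs KI_Con, which compares knock-in mice with and without ethanol, 7 of the 8 genes fell and 1, Khk, did not pass. Slc2a5 and Lct fell most, to 151 ± 56.4 CPM in KI_Half, against 543 ± 108 CPM in KI_Con, and to 192 ± 182 CPM in KI_Half, against 859.8 ± 128 CPM in KI_Con (mean ± SD, n = 6 and 4). Treh fell 2.68-fold, and Slc5a1, Slc2a2, Sis and Mgam fell 1.68- to 1.89-fold. A gene passed at an adjusted p under 0.05 with edgeR's quasi-likelihood test and Benjamini-Hochberg adjustment over all genes tested. Of all 16944 genes tested here 37.9% passed, and 17.9% passed as lower. All 8 fitted differences were negative, beside 49.8% of all genes. The 8 genes moved together from library to library, so their signs, here and below, are not 8 separate observations. The median log2 difference of the 8 genes was -0.88, and that of all genes was 0.00.

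**Figure D1:**
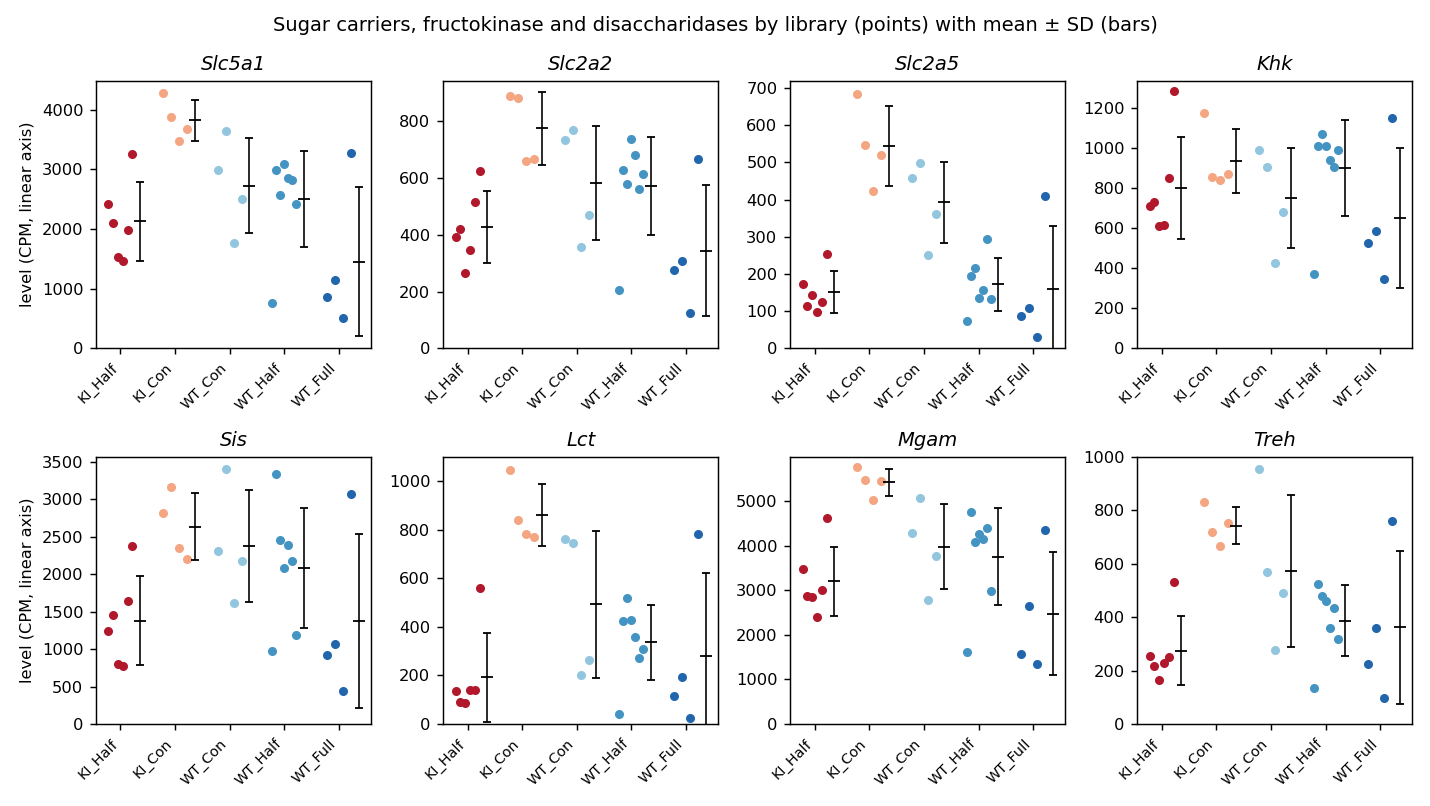
Level of each of the 8 genes in each library (points, CPM on a linear axis) by group, with the mean and SD of the group as a bar beside the points, drawn only down to 0. The KI_Half points lie below all KI_Con points for 6 genes, and WT_Full has 1 library (replicate 4) at control levels in every panel.

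Slc5a1 (ENSMUSG00000011034, GRCm38 chromosome 5, 33104219 to 33162870, plus strand), the sodium-driven entry route of glucose and galactose, was the highest of the family per length of transcript in KI_Con, at 933 ± 83.6 CPM per kb of exon (mean ± SD, n = 4). Slc5a1 was also the highest in KI_Half, WT_Con and WT_Half, but in WT_Full it had a mean of 354 CPM per kb, against 362 for Khk. Its lowest, median and highest levels were 1467, 2042 and 3263 CPM in KI_Half, against 4279.6, 3875, 3472 and 3687 CPM in the KI_Con libraries. WT_Con libraries had 2995, 3644, 1761 and 2504 CPM, WT_Half ones 761, 2829 and 3091 CPM at the lowest, median and highest, and WT_Full ones 863, 1149.6, 513 and 3283 CPM. All 6 KI_Half libraries lay below all 4 KI_Con libraries, whereas 6 of 7 WT_Half libraries lay within the WT_Con range and 3 of 4 WT_Full libraries lay below it. The log2 difference was -0.84 ± 0.21 (± SE) in KI_Half vs KI_Con (edgeR, adjusted p = 0.00873), -0.12 ± 0.32 in WT_Half vs WT_Con (0.854) and -0.91 ± 0.53 in WT_Full vs WT_Con (0.382).

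Slc2a5 (ENSMUSG00000028976, GRCm38 chromosome 4, 150119283 to 150144169, plus strand), the fructose carrier, had the steepest drop of the 3 carriers. Its lowest, median and highest levels were 97.8, 134 and 253 CPM in KI_Half, against 684, 547, 423 and 520.2 CPM in the KI_Con libraries. The WT_Con libraries had 457, 498, 251 and 362 CPM, WT_Half 74.4, 156 and 294 CPM at the lowest, median and highest, and the WT_Full libraries 85.9, 109, 30.6 and 410.3 CPM. The KI groups did not overlap, 6 of 7 WT_Half libraries lay below all WT_Con libraries, and so did 3 of 4 WT_Full libraries, with WT_Half replicate 6 and WT_Full replicate 4 inside the control range. The log2 difference was -1.83 ± 0.24 in KI_Half vs KI_Con (edgeR, adjusted p = 0.000553), -1.18 ± 0.30 in WT_Half vs WT_Con (0.0643) and -1.31 ± 0.65 in WT_Full vs WT_Con (0.325). Ranked by CPM per kb among 16995 genes, it stood at 1271 in KI_Half, against 360 in KI_Con, and at 461 in WT_Con, 1093 in WT_Half and 1198 in WT_Full. The authors' deposited table gives it a log2 fold change of -1.30 in WT_Full vs WT_Con with adjusted p = 0.0573, the smallest of the 8 genes there. An adjusted p under 0.05 was held by 1952 genes in the authors' deposited table. For the 8 genes the authors' mean of normalised counts is the same in both deposited comparisons. Their values may come from a fit of all libraries, unlike the fits of single pairs of groups here.

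Slc2a2 (ENSMUSG00000027690, GRCm38 chromosome 3, 28697903 to 28731359, plus strand), the basolateral carrier, had a smaller fitted difference than Slc2a5. It ran from 264 to 623 CPM in KI_Half, against 661 to 889.7 CPM in KI_Con, with no overlap, and the difference passed (log2 -0.85 ± 0.21, edgeR, adjusted p = 0.00929). In WT mice it ran from 357 to 768 CPM in WT_Con, 205 to 737 CPM in WT_Half and 126 to 668 CPM in WT_Full. The 3 WT ranges overlap. Per kb of exon, Slc2a5 stood above Slc2a2 in all 8 control libraries, with a ratio of their levels of 1.05 to 1.32 in KI_Con and 1.05 to 1.30 in WT_Con. The same ratio was 0.408 to 0.913 in KI_Half, 0.311 to 0.887 in WT_Half and 0.411 to 1.04 in WT_Full, so that each of the 17 ethanol libraries lay below each control library, WT_Full replicate 4 included. No test was made of this ratio, which was chosen after the values were seen.

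Khk (ENSMUSG00000029162, GRCm38 chromosome 5, 30921431 to 30931248, plus strand), the kinase that takes up fructose after its entry, had the smallest fitted difference of the 8 in KI_Half vs KI_Con. Its lowest, median and highest levels were 608, 721 and 1283 CPM in KI_Half, against 1174, 854, 837 and 867 CPM in the KI_Con libraries. The WT_Con libraries had 987, 903, 426 and 679 CPM, WT_Half 370.5, 990.1 and 1070.5 CPM at the lowest, median and highest, and the WT_Full libraries 524, 585, 345 and 1150.1 CPM. The groups overlap in every comparison, and KI_Half replicate 7 was above all KI_Con libraries. The log2 difference was -0.21 ± 0.21 in KI_Half vs KI_Con (edgeR, adjusted p = 0.457), 0.27 ± 0.28 in WT_Half vs WT_Con (0.602) and -0.20 ± 0.38 in WT_Full vs WT_Con (0.801). Without KI_Half replicate 7 the first of these passed, at -0.40 (adjusted p = 0.0342). Leaving that library out also raised the calls over all genes, to 3563 lower and 3914 higher, against 3032 and 3388 with it. The ratio of Khk to Slc2a5 per kb was 7.74 to 12.9 in KI_Half, against 2.96 to 3.75 in KI_Con, and 3.21 to 4.09 in WT_Con, 5.82 to 14.1 in WT_Half and 5.31 to 21.3 in WT_Full. Every ethanol library was above every control library, which describes a ratio also chosen after the values were seen.

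Sis (ENSMUSG00000027790, GRCm38 chromosome 3, 72888557 to 72967863, minus strand), which cuts sucrose and isomaltose, had 771, 1350.0 and 2377 CPM at the lowest, median and highest in KI_Half, against 2825, 3170.4, 2351 and 2208 CPM in the KI_Con libraries. KI_Half replicate 7 reached into the KI_Con range and the other 5 lay below it. The difference passed (log2 -0.92 ± 0.29, edgeR, adjusted p = 0.0253), and was lost without KI_Con replicate 1 (adjusted p = 0.0607), KI_Con replicate 2 (0.0747) or KI_Half replicate 1 (0.0505). In WT mice Sis ran from 1623 to 3412 CPM in WT_Con, 971 to 3339.5 CPM in WT_Half and 446 to 3076 CPM in WT_Full, and the 3 ranges overlap. Mgam (ENSMUSG00000068587, GRCm38 chromosome 6, 40628831 to 40769123, plus strand), which cuts starch fragments to glucose, had the highest CPM of the family with a long transcript. It ran from 2393 to 4619 CPM in KI_Half, against 5012 to 5758 CPM in KI_Con, with no overlap (log2 -0.75 ± 0.17, edgeR, adjusted p = 0.00544), and from 2785 to 5067 CPM in WT_Con, 1619.7 to 4759.8 CPM in WT_Half and 1340.1 to 4355 CPM in WT_Full.

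Lct (ENSMUSG00000026354, GRCm38 chromosome 1, 128284756 to 128328318, minus strand), which cuts lactose and is known for its decline after weaning in mammals, had the widest range of the family as the ratio of its highest to its lowest library. Its lowest, median and highest levels were 84.9, 137 and 559 CPM in KI_Half, against 1046, 841, 783 and 769 CPM in the KI_Con libraries. The WT_Con libraries had 762, 744, 201 and 264 CPM, WT_Half 42.6, 357 and 520.1 CPM at the lowest, median and highest, and the WT_Full libraries 117, 194, 26.5 and 784 CPM. In the KI groups 5 of 6 ethanol libraries were at 139.9 CPM or less, replicate 7 was higher, and no ethanol library reached the KI_Con range, while WT_Con itself was split between replicates 1 and 2, which were high, and 3 and 4, which were low. The log2 difference was -2.15 ± 0.48 in KI_Half vs KI_Con (edgeR, adjusted p = 0.00573), -0.55 ± 0.52 in WT_Half vs WT_Con (0.556) and -0.83 ± 0.86 in WT_Full vs WT_Con (0.628). Without KI_Half replicate 7 the first was -2.85 (adjusted p = 5.43e-06), and without WT_Full replicate 4 the last was -2.11 (0.0963).

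Treh (ENSMUSG00000032098, GRCm38 chromosome 9, 44673233 to 44686305, plus strand), which cuts the insect and fungal sugar trehalose, was the third gene with a fitted drop of over 1 on the log2 scale in KI_Half vs KI_Con. It had 165, 239 and 530.3 CPM at the lowest, median and highest in KI_Half, against 833, 719, 666 and 754 CPM in the KI_Con libraries. The KI groups did not overlap, and KI_Half replicate 7 was again the highest of its group. The WT_Con libraries had 957.0, 568.1, 277.9 and 491.0 CPM, WT_Half 135, 435 and 523 CPM at the lowest, median and highest, and the WT_Full libraries 226, 361, 97.1 and 762 CPM. The log2 difference was -1.42 ± 0.27 in KI_Half vs KI_Con (edgeR, adjusted p = 0.00246), and those of -0.57 ± 0.35 in WT_Half vs WT_Con and -0.68 ± 0.58 in WT_Full vs WT_Con did not pass (adjusted p = 0.355 and 0.550).

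Over the family, 6 of 8 genes did not overlap between KI_Half and KI_Con, all lower, beside 13.9% of all genes. The 8 genes together took 0.617 to 1.35% of a library's counts in KI_Half, against 1.38 to 1.57% in KI_Con. Several cell type lists moved in the same comparison, in which 17.9% of all genes fell and 3388 of 16944 rose. Of the villus enterocyte markers 10 of 20 fell, with a summed level of 27633 to 48042 CPM in KI_Half, against 43623 to 61532 CPM in KI_Con. Of the crypt stem and cycling markers 6 of 10 rose and 1 fell (562 to 708 CPM in KI_Half, against 339.8 to 496 CPM in KI_Con), and all 8 T and NK cell markers fell (28.7 to 149 CPM, against 208 to 265 CPM). Of 7 goblet markers 3 fell and 1 rose, and 3 of 10 smooth muscle and 2 of 5 stomach markers fell. Of 4 Brunner gland and 2 ileum markers 0 passed. All 14 acinar genes counted fell, and without the 2 KI_Con libraries that held over 100 CPM of them, 2 of the 8 family members passed, Slc2a5 at -1.63 (adjusted p = 0.0162) and Treh at -1.36 (0.0359). With 2 KI_Con libraries left, the other 5 that had passed kept their sign without passing, from -2.0 for Lct (adjusted p = 0.0567) to -0.63 for Slc2a2 (0.132), against -2.15 and -0.85 with all 4 KI_Con libraries. Over all genes, calls fell too, to 1111 lower and 1454 higher, against 3032 and 3388 with all 4. In bulk duodenum, fewer enterocytes and less RNA per enterocyte cannot be told apart.

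**Figure D2:**
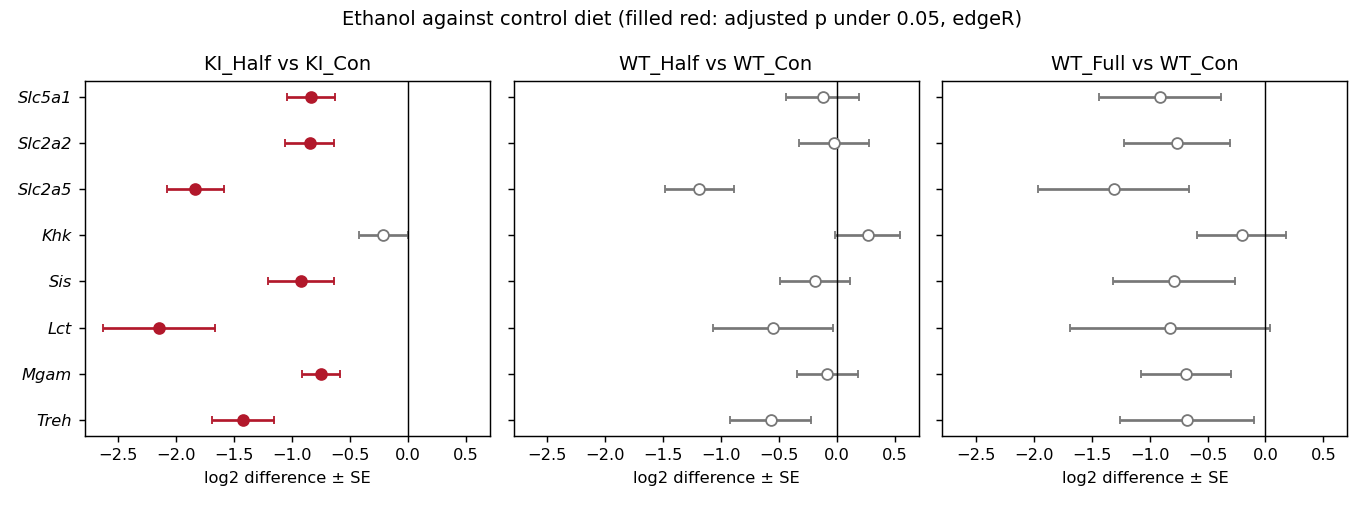
Fitted log2 difference (points) ± SE (bars) of each gene between ethanol and control diet in KI_Half vs KI_Con, WT_Half vs WT_Con and WT_Full vs WT_Con; filled red points have an adjusted p under 0.05. In the first panel 7 points are filled and Khk is open, and in the other panels none is filled.

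In WT mice no member passed in either ethanol comparison. In WT_Half vs WT_Con 0 of 8 genes passed (edgeR), beside 1.47% of all 16993 genes, and 7 of 8 fitted differences were negative, beside 50.1% of all genes, with a median of -0.15. No member was lower without overlap, beside 2.17% of all genes. Slc2a5 was nearest to the threshold and was the 1 member with an unadjusted p under 0.05. It passed without WT_Half replicate 1 (-1.06, adjusted p = 0.0488), without WT_Half replicate 6 (-1.37, 0.0323) and with DESeq2 (-1.19, 0.00529).

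In WT_Full vs WT_Con 0 of 8 genes passed, beside 0.00592% of all 16882 genes, which is 1 gene, while 3003 genes had an unadjusted p under 0.05, none of them a member. DESeq2 called 934 genes and 0 members. All 8 fitted differences were negative, with a median of -0.78, beside 50.1% of all genes. No member was lower without overlap, beside 3.78% of all genes. Without WT_Full replicate 4, 3 members passed, Slc2a5 at -2.37 (adjusted p = 0.0166), Slc5a1 at -1.67 (0.0223) and Sis at -1.53 (0.0333), and 2069 genes passed in all. WT_Full replicate 4 also had the highest summed villus enterocyte level of all 25 libraries, 65025 CPM, and its part in the difference was not tested beyond leaving it out. WT_Full vs WT_Half also called 0 of 8 members and 0 of 16967 genes by edgeR (780 at an unadjusted p under 0.05, none a member; 20 genes with DESeq2), with 8 negative fitted differences, beside 45.3% of all genes, from -0.78 (Slc5a1) to -0.09 (Treh).

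**Figure D3:**
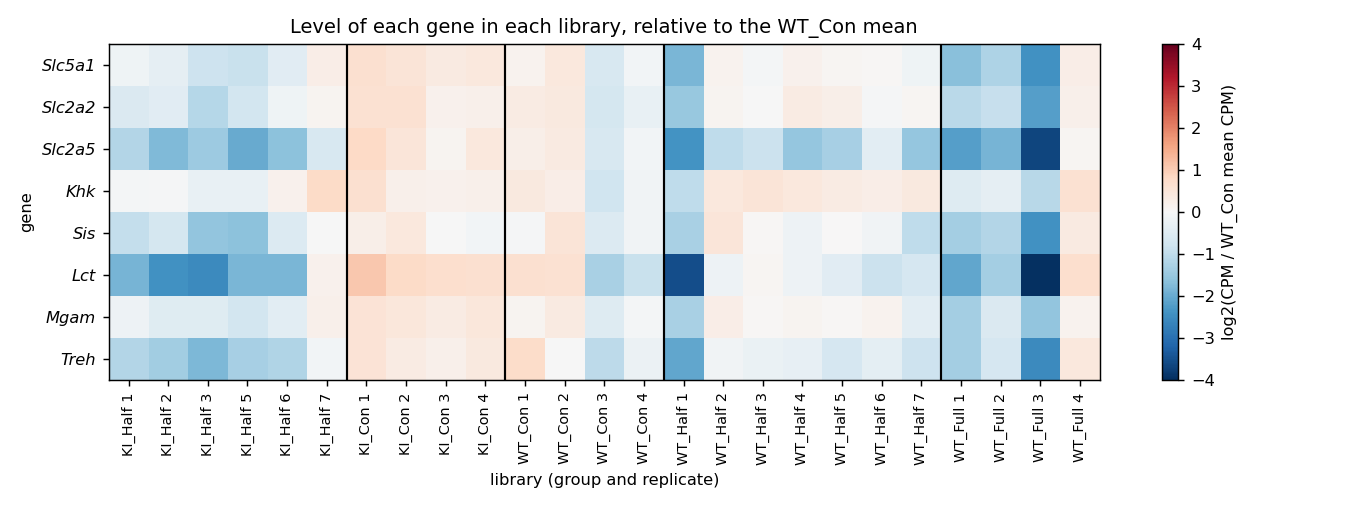
Level of each gene (rows) in each of the 25 libraries (columns, by group) as the log2 of its CPM over the mean CPM of WT_Con. WT_Full replicate 4 stands out from replicates 1 to 3 of its group, WT_Half replicate 1 is low in every row, and Slc2a5 is low in most ethanol libraries.

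Genotype made no difference that passed. In KI_Half vs WT_Half, mice of both genotypes on the same ethanol regimen, 0 of 8 members and 0 of 16907 genes passed with edgeR (2398 genes at an unadjusted p under 0.05, none a member; 172 genes with DESeq2). The 8 fitted differences were all negative, beside 53.1% of all genes, from -0.81 ± 0.52 for Lct to -0.17 ± 0.23 for Khk. In KI_Con vs WT_Con, on the control diet, 0 of 8 members and 0 of 16813 genes passed with edgeR (1664 genes at an unadjusted p under 0.05, among them Slc5a1 and Mgam; 11 genes with DESeq2), and all 8 fitted differences were positive, while 53.1% of all genes had negative ones. They ran from 0.14 ± 0.22 for Sis to 0.79 ± 0.41 for Lct. Lct was the 1 member whose groups did not overlap there, with 769 to 1046 CPM in KI_Con, against 201 to 762 CPM in WT_Con, beside 2.97% of all genes that were higher without overlap. The low WT_Con libraries for Lct, replicates 3 and 4, had the highest Brunner gland levels of all 25 libraries, 53712 and 33262 CPM. With the level of Brunner gland genes as a covariate the fitted Lct difference was 0.59, against 0.79 without it. It was 0.53 and 0.58 without WT_Con replicate 3 or 4, and 1.09 and 1.06 without replicate 1 or 2. None of these passed, and the part of these libraries was not tested further.

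The difference of the differences, KI_Half vs KI_Con minus WT_Half vs WT_Con, was negative for all 8 genes, beside 49% of all genes, but passed for none, and for 0 of 17006 genes tested with edgeR (2162 at an unadjusted p under 0.05, among them Slc2a2 and Lct; 36 genes with DESeq2). It was -1.60 ± 0.77 for Lct (adjusted p = 0.393), -0.83 ± 0.39 for Slc2a2 (0.390) and -0.65 ± 0.42 for Slc2a5 (0.502). The response of knock-in and wild-type mice was therefore not shown to differ for any member, although 7 members passed in one genotype and none in the other. When all 5 groups were tested at once, Slc2a5 alone passed (adjusted p = 0.00597), beside 28.6% of all 17007 genes. Treh (0.0578) and Mgam (0.0592) were next and Khk was last (0.592). Slc2a5 passed this test without any one library, with an adjusted p of at most 0.0203. Group means were highest in KI_Con for all 8 genes, lowest in WT_Full for Slc5a1, Slc2a2, Khk, Sis and Mgam, and lowest in KI_Half for Slc2a5, Lct and Treh. This order rests on WT_Full replicate 4, without which the WT_Full means of Slc2a5, Lct and Treh were 75.0, 112 and 228 CPM, against 151, 192 and 274 CPM in KI_Half, and WT_Full was lowest for all 8. With all libraries, neighbours in these orders overlapped in their ranges, with the exception of KI_Con and WT_Con for Lct.

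Levels were also set against the summed counts of the 20 villus enterocyte markers, as counts per 1000 marker counts. Slc2a5 had 2.74 to 5.28 in KI_Half, against 9.36 to 11.5 in KI_Con, and 8.37 to 11.8 in WT_Con, 2.75 to 6.70 in WT_Half and 1.15 to 6.31 in WT_Full. On this scale it did not overlap between ethanol and control diet in any of the 3 comparisons, WT_Full replicate 4 included. Khk had 14.8 to 26.7 in KI_Half, against 15.6 to 19.2 in KI_Con, and 15.5 to 22.1 in WT_Con, 13.7 to 23.5 in WT_Half and 13.0 to 17.7 in WT_Full, with overlap in all 3 comparisons. In KI_Half vs KI_Con 3 members lay lower without overlap on this scale (Slc2a5, Lct and Treh), beside 4.01% of all genes. In WT_Half vs WT_Con it was 1 (Slc2a5, 3.06%), and in WT_Full vs WT_Con 4 (Slc5a1, Slc2a2, Slc2a5 and Mgam, 4.1%).

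With library sizes scaled to the same markers, which moved the median log2 difference of all genes to 0.38 in KI_Half vs KI_Con and -0.22 in WT_Half vs WT_Con, 6 of 8 members passed as lower in KI_Half vs KI_Con. Over all genes 1005 passed as lower and 4324 as higher on that scale, and 3032 and 3388 with TMM scaling; in WT_Half vs WT_Con 193 passed as lower and 33 as higher on that scale, and 97 and 152 with TMM scaling. Slc2a5 was at -1.47 (edgeR, adjusted p = 0.000714), Lct at -1.89 (0.00305) and Treh at -1.11 (0.00226). Mgam no longer passed (-0.40, 0.0628) and Khk turned to 0.14 (0.572). Slc2a5 then passed in WT_Half vs WT_Con (-1.40, 0.0131) but not in WT_Full vs WT_Con (-1.64, 0.180).

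**Figure D4:**
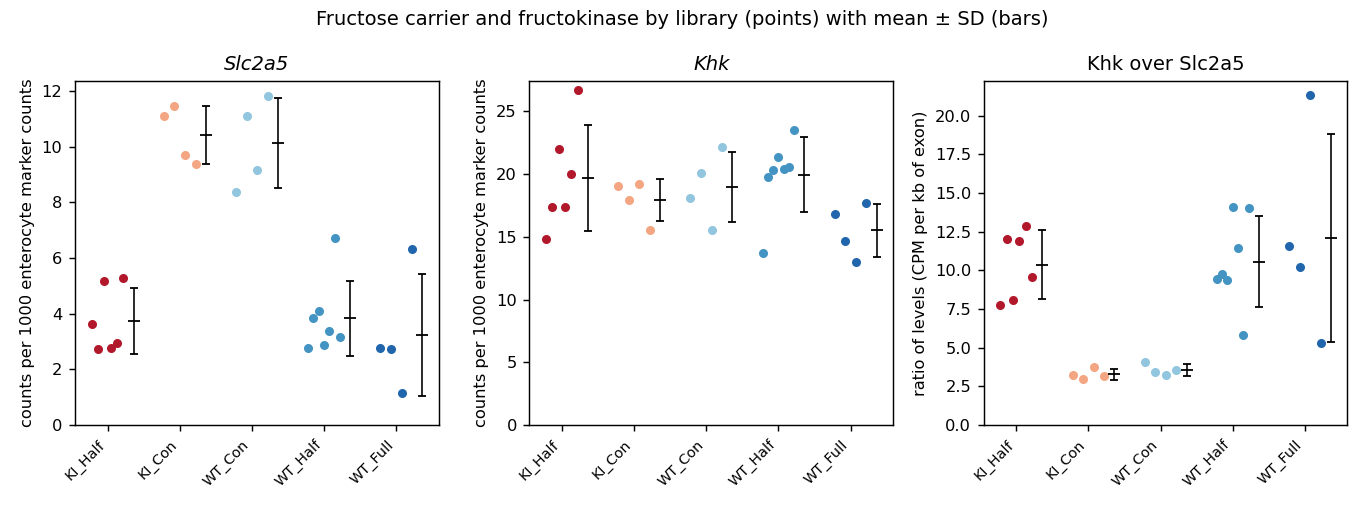
Slc2a5 and Khk as counts per 1000 villus enterocyte marker counts, and the ratio of Khk to Slc2a5 levels per kb of exon, by library (points) with the mean and SD of each group (bars). Slc2a5 is lower in every ethanol library than in the control libraries of its genotype, Khk overlaps between groups, and the ratio is above the control range in every ethanol library.

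Of 18 other sugar carriers listed, 16 were counted and tested in KI_Half vs KI_Con, where 7 fell and 2 rose, beside 17.9% of all genes that fell and 37.9% that passed. Slc5a4a, a relative of SGLT1, fell most, to 1.64 ± 1.24 CPM in KI_Half, against 48.3 ± 5.47 CPM in KI_Con (log2 -4.88 ± 0.51, edgeR, adjusted p = 0.000276). Reads of Slc5a4a and its near copy Slc5a4b (-1.48 ± 0.27, 0.00188) may be split between them, and how reads that match several genes were counted is not stated in the sources used here. Slc2a7, a member of the GLUT5 class of carriers, had 15.9 ± 9.00 CPM in KI_Half, against 124 ± 18.8 CPM in KI_Con (-2.94 ± 0.34, 0.000376), and Slc2a9, the urate carrier, 18.5 ± 3.12 CPM, against 45.9 ± 3.44 CPM (-1.30 ± 0.13, 0.000242). The others that fell were Slc2a6, Slc5a9 and Slc5a11. Slc2a1, the general glucose carrier GLUT1, rose to 94.9 ± 40.5 CPM in KI_Half, against 24.1 ± 2.48 CPM in KI_Con (1.99 ± 0.31, 0.000929), and Slc50a1 rose by 0.59 on the log2 scale (0.0158); these 2 and Slc5a4b were named after their values were seen. The median log2 difference of the 16 was -0.44. The cell type markers that moved in the same comparison are given above, and their part in this list and in those that follow was not tested.

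Slc5a4a was also the 1 carrier of this list that passed in WT_Half vs WT_Con, where it had 1.09 to 8.47 CPM in WT_Half, against 8.45 to 33.7 CPM in WT_Con, overlapping by 1 library (log2 -2.28 ± 0.45, edgeR, adjusted p = 0.0334). In WT_Full vs WT_Con none of the 16 passed, 12 of them had negative fitted differences, and Slc5a4a stood at -3.46 ± 0.73 (0.129). Slc5a4a had 0.280 to 4.35 CPM in WT_Full, which does not overlap with WT_Con.

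**Figure D5:**
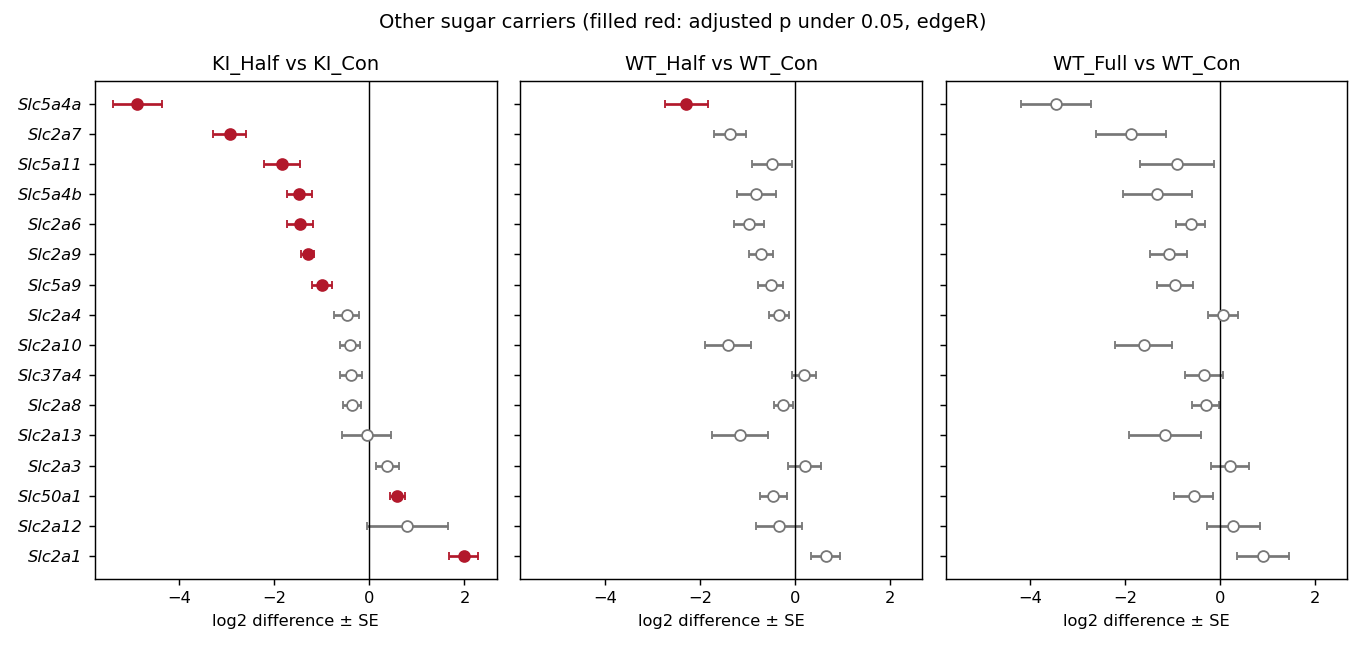
Fitted log2 difference (points) ± SE (bars) of 16 other sugar carriers in KI_Half vs KI_Con, WT_Half vs WT_Con and WT_Full vs WT_Con; filled red points have an adjusted p under 0.05. Slc5a4a has the lowest value in each panel, and Slc2a1 lies above 0 in each.

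Among 18 enzymes that handle fructose, galactose and glucose 6-phosphate, 5 fell and 4 rose in KI_Half vs KI_Con, beside 17.9% of all genes that fell and 37.9% that passed. Their median log2 difference was 0.05, close to the 0.00 of all genes. Galm, which turns galactose between its ring forms, had 103 ± 24.7 CPM in KI_Half, against 233 ± 13.3 CPM in KI_Con (log2 -1.16 ± 0.16, edgeR, adjusted p = 0.000553). Glyctk, a glycerate kinase, fell (-1.25 ± 0.26, 0.00365). Tkfc, the triokinase of fructose breakdown, did not pass (-0.24 ± 0.24, 0.464). Hk2, a hexokinase, rose by 3.12 on the log2 scale (0.00640), with 35.0 to 486 CPM in KI_Half, against 18.9 to 35.1 CPM in KI_Con, which overlap slightly. Tkfc was named after its values were seen. None of the 18 passed in WT_Half vs WT_Con or WT_Full vs WT_Con.

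Of 23 tested regulators of the family, 1 fell and 6 rose in KI_Half vs KI_Con, a share below the 37.9% of all genes that passed, with a median log2 difference of 0.08. Thra, a thyroid hormone receptor, had 61.1 ± 18.9 CPM in KI_Half, against 129 ± 6.25 CPM in KI_Con (log2 -1.07 ± 0.19, edgeR, adjusted p = 0.00188). Foxa1 (0.91 ± 0.17, 0.00264), a transcription factor of gut epithelium, rose, as did Hnf4a, Cdx1, Klf5 and Txnip. Mlxipl, which encodes the carbohydrate response factor ChREBP, was at -0.13 ± 0.15 (0.530), and was named after its values were seen. Of 7 genes of the sodium pump and its partners, 2 fell and 1 rose, again beside 37.9%. Pdzk1, a scaffold protein of the brush border, fell to 17.9 ± 12.1 CPM in KI_Half, against 105 ± 19.3 CPM in KI_Con (-2.53 ± 0.40, 0.00102), and Slc9a3r1, another scaffold protein, fell too (-1.11 ± 0.20, 0.00201). Slc9a3, the sodium-proton exchanger NHE3, rose (2.09 ± 0.60, 0.0181), and the pump subunit gene Atp1b1 (-0.33 ± 0.13, 0.0571) did not pass.

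In the test of all 5 groups at once, which 28.6% of all genes passed, 8 of the 16 other carriers passed, led by Slc5a4a (edgeR, adjusted p = 2.49e-05), Slc2a7 (0.000592) and Slc2a6, a carrier of lysosomes (0.00104). Slc2a6 had 2.49 to 6.64 CPM in KI_Half, against 7.46 to 16.5 CPM in KI_Con, with no overlap, and 4.59 to 7.37 CPM in WT_Con, 1.32 to 4.52 CPM in WT_Half and 2.81 to 5.79 CPM in WT_Full. Of the enzymes 6 passed, led by Hk2 (0.00190), Galm (0.00478) and Pfkfb3, which makes a fructose bisphosphate that activates glycolysis (0.00937). Of the regulators 8 passed, led by Txnip (0.00112), Hnf4a (0.00283) and Thra (0.00295), and of the pump genes 3, namely Slc9a3, Slc9a3r1 and Pdzk1. Txnip encodes an arrestin-like protein that lowers glucose uptake, and Hnf4a a nuclear receptor of gut and liver.

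Members moved together from library to library. Over the 25 libraries the Pearson correlation of log2 CPM between members ran from 0.642 (Slc2a5 with Khk) to 0.975 (Slc5a1 with Mgam), with a median of 0.887 over 28 pairs, and after group means were taken out it ran from 0.816 to 0.963. These are descriptions only, since all members share the tissue makeup and depth of a library, and both varied between libraries. Among 12697 genes searched, the 3 most like Slc5a1 were Mgam (0.975), Cobl, an actin nucleator of the brush border (0.964), and Slc6a19, a neutral amino acid carrier (0.964). The 3 most like Slc2a2 were Slc7a15 (0.969), Slc6a19 (0.967) and Mertk, a receptor kinase (0.964). For Slc2a5, 2 of the 3 were Galm (0.959) and the ubiquitin ligase Mgrn1 (0.959). For Khk they were Slc37a4, the glucose 6-phosphate carrier of the endoplasmic reticulum (0.968), the acyltransferase Agpat3 (0.952) and the cytochrome Cyp3a11 (0.945), which is itself one of the enterocyte markers.

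The disaccharidases had other neighbours. Sis was most like Nat8f4 (0.955), the thiamine carrier Slc19a3 (0.943) and Cobl (0.937), and Mgam most like Slc5a1 (0.975), Cobl (0.945) and H2-Q2 (0.945). Lct was most like Slc5a11, an inositol carrier (0.976), the deiodinase Dio1 (0.974) and 2010106E10Rik (0.973). Treh was most like Smim24 (0.983), 2010106E10Rik (0.981) and Gm5485 (0.977). The correlation of Lct with Treh was 0.972.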

How the data were processed

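Polyadenylated RNA of mouse duodenum was sequenced in 25 libraries. Per the submitters' processing notes, reads were handled with FastQC, Trimmomatic, HISAT2, SAMtools, featureCounts and DESeq2 on GRCm38; neither versions nor the gene annotation nor the strand setting is stated in the sources used here. The deposited values are raw counts of reads for each gene. For 2 comparisons (KI_Half vs WT_Half, WT_Full vs WT_Con) the authors added log2 fold changes and p-values, under the column names of DESeq2 per the file headers. A deposited signal column holds the authors' mean of normalised counts, and the deposited score columns and 1 other deposited column (libraries per gene above a count limit) were not used. The 2 deposited tables held the same counts, 213 repeated lines were merged, and 0 columns of sample values were left unused.

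Counts were tested in R 4.3.3 with edgeR 4.0.16: TMM scaling, filterByExpr with the groups at its default limits, quasi-likelihood F tests, 1 fit per pair of groups, two-sided, Benjamini-Hochberg adjusted p under 0.05 over all genes tested. All 8 members passed the filter on low counts in each of the 8 tests. Exon lengths and positions come from GENCODE M21 (GRCm38). Members share no exon bases with another gene except 2 bases of Treh. Levels are CPM, and correlations used log2 CPM with a prior count of 2 for genes with an average of at least 1. Steps were tested on simulated counts. Alternatives were relative log expression factors, no filter, DESeq2 1.42.0, limma-voom (limma 3.58.1), a Brunner gland covariate, 1 fit of all libraries, a replicate block, enterocyte marker scaling and leaving out each library; leaving out control libraries with over 100 CPM of acinar genes was added after the data were seen.

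Named genes are the 8 members, the 3 genes most correlated with each, and, of each pathway list, the 3 with the smallest p in a comparison where a member passed; a few of these are not reported here. The members and lists were chosen with earlier results of these data known. Libraries of 1 group were not duplicates of each other, with a median chi-square per gene of at least 3.85 between any pair.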

Additional observations from a re-analysis of the deposited data

Results flagged for a closer look

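Of 40 sets of libraries (8 genes in 5 groups), 7 held a library far from the rest of its group by Dixon's criterion, which marks about 1 in 20 by chance; the 8 genes move together, so the 7 are not independent. WT_Half replicate 1 was low for Slc5a1 (761 CPM, others 2422 to 3091), Slc2a2 (205 CPM, others 561 to 737) and Khk (370.5 CPM, others 904 to 1070.5). KI_Half replicate 7 was high for Khk (1283 CPM, others 608 to 849), Lct (559 CPM, others 84.9 to 139.9) and Treh (530.3 CPM, others 165 to 255). KI_Con replicate 1 was high for Khk (1174 CPM, others 837 to 867).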

How the results depend on the processing

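The number of members that passed changed with some of the choices. In KI_Half vs KI_Con it was 7, and 4 with all 25 libraries in 1 fit (Slc2a5, Lct, Mgam and Treh), 2 without the control libraries that held acinar RNA, 6 with enterocyte scaling, and 6 to 8 when each library was left out in turn. In WT_Half vs WT_Con it was 0, and 1 (Slc2a5) with DESeq2 or enterocyte scaling and 0 to 1 when each library was left out. In WT_Full vs WT_Con it was 0, and 0 to 3 when each library was left out. For any difference among the 5 groups it was 1, and 4 with DESeq2, 3 with limma-voom and 1 to 7 when each library was left out, the 7 without WT_Full replicate 4. In WT_Full vs WT_Half, KI_Half vs WT_Half, KI_Con vs WT_Con and the interaction it was 0 under every alternative run. The calls over all genes shifted too. In KI_Half vs KI_Con they ran from 2565 to 7057 by the alternatives and from 4927 to 7477 with each library left out, against 6420. There 1 fit of all libraries called 2702 genes lower and 2737 higher. For the 5 groups they ran from 3681 to 6451 and from 3604 to 6497, against 4868. The cause of these shifts was not tested. DESeq2 gave no adjusted p for Lct in KI_Half vs KI_Con. Whether replicate numbers pair the libraries was not settled. No comparison had every same-numbered pair correlated above 0.1, but KI_Con vs WT_Con had 3 of 4 pairs above it. The highest correlation was 0.51, for replicate 1 of WT_Full vs WT_Half. Pairs of unlike number were not compared, so this check cannot exclude a pairing. With a replicate block 8 members passed in KI_Half vs KI_Con, Khk among them (-0.46, edgeR, adjusted p = 0.0318, 3 pairs). Over all genes this block called 3010 as lower and 3143 as higher. In the other 5 pairs of groups 0 members passed with a block, and no paired fit was made of the interaction or of the 5 groups.

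Signs turned only for values that did not pass. Khk turned to -0.011 in WT_Half vs WT_Con without the acinar control libraries, which leaves WT_Con replicate 2 alone on the control side, to 0.14 in KI_Half vs KI_Con, and to -0.081 in KI_Con vs WT_Con with enterocyte scaling. Sis turned to -0.27 with that scaling and -0.061 with the Brunner gland covariate in KI_Con vs WT_Con. When each library was left out, log2 differences crossed 0 for Khk in WT_Full vs WT_Con (-0.61 to 0.0023), for Slc5a1 (-0.28 to 0.046), Slc2a2 (-0.20 to 0.13), Sis (-0.34 to 0.030) and Mgam (-0.22 to 0.050) in WT_Half vs WT_Con, for Slc2a5 (-1.18 to 0.23), Treh (-0.75 to 0.22) and Lct (-1.57 to 0.12) in WT_Full vs WT_Half, for Slc2a5 in KI_Half vs WT_Half (-0.40 to 0.012) and for Sis in KI_Con vs WT_Con (-0.0075 to 0.36). Of all genes, edgeR called 1 in WT_Full vs WT_Con, and DESeq2 934, 1 fit of all libraries 1289, enterocyte scaling 35, the replicate block 0, the Brunner gland covariate 0, and leaving out libraries 0 to 2069. In WT_Half vs WT_Con edgeR called 249, DESeq2 1353, limma-voom 146, 1 fit of all 720, the covariate 7, the block 0, and leaving out libraries 21 to 446. In KI_Half vs KI_Con it called 6420, and 2565 without the acinar control libraries. In the WT comparisons with WT_Con the same step leaves 1 control library, assumed to vary like the other group, and its 0 calls say nothing about acinar RNA. The comparisons with 0 genes had at most 2 by other alternatives beside DESeq2. Depth was not limiting for the 8 members, whose lowest count in a library was 949.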
